A study of Homo sapiens with 4 samples.

Results

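Cadherins are calcium-dependent adhesion proteins of the cell surface, and this account follows all 88 of their protein-coding genes whose symbols begin with CDH and a digit or with PCDH, chromosome Y left out, among 63241 genes counted. The rule used symbol, gene type and chromosome, and no measured value. The set holds 5 type I classical cadherins, 13 type II classical cadherins, 5 other cadherins, 15 alpha, 16 beta and 22 gamma protocadherins, which stand in 3 neighbouring clusters on chromosome 5, and 12 protocadherins outside the clusters. RNA was sequenced from FT190 cells, labelled as an ovarian epithelial cell line of wild-type genotype and known to have been immortalised from fallopian tube secretory cells. 2 libraries came from cells labelled as control, which the design text describes as carrying the PLKO vector, and 2 from cells expressing the short hairpin RNA SMARCA4_sh1 that targets SMARCA4, an ATPase subunit of SWI/SNF remodelling complexes. A single hairpin was used, and whether the replicates are separate cultures is not in the labels. The p-values below reflect only how far these libraries spread, which may be technical.

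Classical cadherins bind the same or a related cadherin on the next cell and are tied to actin through the catenins. E-cadherin (CDH1) is typical of epithelia and N-cadherin (CDH2) of mesenchymal and neural cells. Clustered protocadherins are known from neurons, where each cell uses a few of many alternative first exons and so carries an identity code at its surface. Each alpha or gamma gene of the clusters has a first exon of its own, with its own promoter, spliced to constant exons that all genes of that cluster use. Beta genes have single exons and no constant part.

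Library totals ran from 27137414 to 33641343 counts. SMARCA4 itself stood at 171 and 162 CPM (counts scaled to a common library size) in the control libraries and at 34.0 and 36.3 CPM in the shRNA libraries, a 4.74-fold lower level. The chi-square per degree of freedom between replicates was 4.50 for the controls and 1.58 for the shRNA pair, above the value of sampling noise. The cell type label was set beside lists of markers, chosen with earlier results of these data known. The Müllerian factor PAX8 lay between 57.4 and 63.5 CPM, and the keratins KRT7, KRT8 and KRT18 between 302 and 773 CPM, whereas EPCAM, MUC16, OVGP1 and KRT19 stayed at or below 0.558 CPM. The markers of fibroblasts or smooth muscle were not low, at a sum between 1678 and 2369 CPM, most of it COL1A1 (1540 to 2004 CPM). In each library this sum lay above that of the secretory or epithelial markers (1249 to 1848 CPM), as COL1A1 did alone. The other markers of fibroblasts or smooth muscle were lower. TAGLN had 108 to 337 CPM, PDGFRA at most 1.80 CPM and COL1A2 at most 0.305 CPM. The markers thus do not set these cells apart as epithelial only. Markers of endothelium summed to between 1.00 and 1.34 CPM and those of ciliated cells to between 1.34 and 2.01 CPM. Of the immune markers MS4A1 was at 0 in all libraries, and of the sum of 22.8 to 25.2 CPM most was CD68, at 21.7 to 24.3 CPM.

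The constant exons decide what the counts of the gamma genes mean, so the sequences at that joint are shown first. Each line gives the last 30 bases of a gene's own first exon in lower case and the first 30 bases of the constant part in capitals, read 5′ to 3′ on the plus strand from GENCODE release 29 transcripts. PCDHGC3, PCDHGB5, PCDHGB4 and PCDHGA11 are the members with the most reads of their own, and PCDHGA3 the member with the fewest.
PCDHGC3: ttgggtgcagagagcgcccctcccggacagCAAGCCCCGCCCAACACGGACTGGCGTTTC
PCDHGB5: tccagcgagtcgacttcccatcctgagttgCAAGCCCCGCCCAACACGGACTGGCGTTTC
PCDHGB4: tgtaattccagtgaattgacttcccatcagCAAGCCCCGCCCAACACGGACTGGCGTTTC
PCDHGA11: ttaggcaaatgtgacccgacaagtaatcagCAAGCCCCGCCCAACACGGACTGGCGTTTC
PCDHGA3: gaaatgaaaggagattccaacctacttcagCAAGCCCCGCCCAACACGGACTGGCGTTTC
The lower-case parts come from first exons that end at 141478546, 141400524, 141390281, 141423660 and 141346457 on chromosome 5 (hg38), in the order of the lines. The capitals are the same in each line because the constant part starts at 141494807 for all of them. All 22 gamma transcripts that were counted share 3 exons, chr5:141494807-141494865, chr5:141505393-141505481 and chr5:141510947-141512975, which come to 2177 bases of transcripts 4733 to 4847 bases long. A read from these exons therefore adds to the count of every gamma gene.

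The unclustered cadherins and protocadherins come first. FT190 cells were an N-cadherin line by transcript level. To compare levels between genes, counts were divided by the length of the counted transcript (RPKM, CPM per kilobase). CDH2 stood at 129 and 122 RPKM in the controls. CDH11, a type II cadherin typical of mesenchymal cells, came next at 21.1 and 19.1 RPKM. It was followed by CDH13 (T-cadherin, held by a lipid anchor and without a cytoplasmic tail) with a control mean of 9.22 RPKM and CDH24 with 7.24 RPKM. PCDH1, CDH6 and PCDH7 had control means of 2.04, 1.53 and 1.43 RPKM, and the ranges of CDH6 and PCDH7 over the 2 controls overlapped. CDH1 stood at 0.982 and 0.759 RPKM in the controls, far below CDH2 in each library. CDH3, CDH4, PCDH18, CDH8, PCDH10 and PCDH9 had control means between 0.0370 and 0.525 RPKM. In that order the ranges of CDH3 and CDH4, and those of PCDH18 and CDH8, overlapped, and those of the other neighbours did not.

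**Figure D1:**
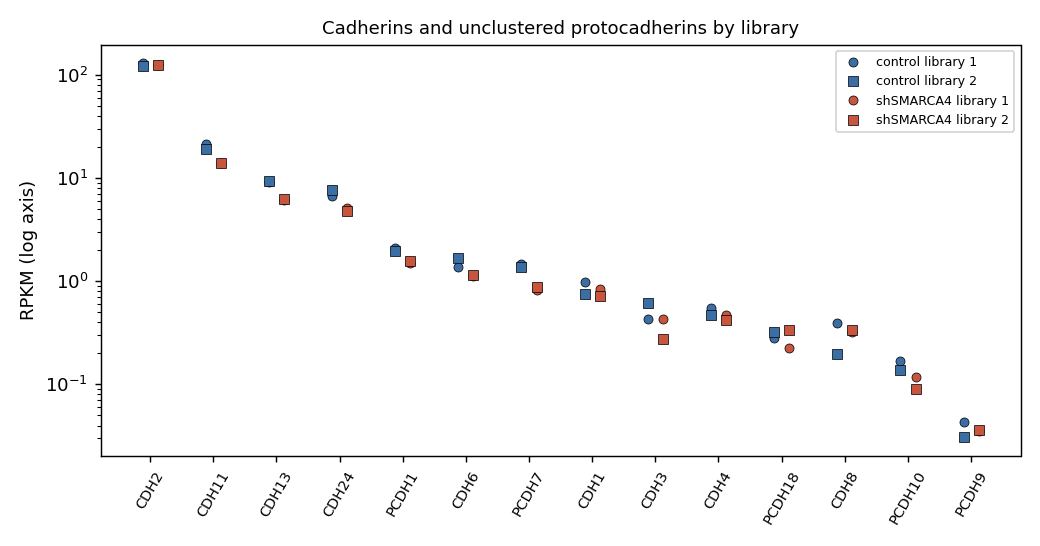
Level per transcript length (RPKM, log axis) of the 14 unclustered members that passed the low-count filter, in order of their control mean, with 1 point per library (circles library 1, squares library 2; blue control, red shSMARCA4). CDH2 lies highest at 129 and 122 RPKM in the controls, and the red points of CDH11, CDH13, CDH24, PCDH1, CDH6 and PCDH7 lie below the blue ones.

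Depletion of SMARCA4 went with lower transcript levels of 6 unclustered members, and none rose. Of 35 such genes 14 passed the filter on low counts. Of these 0 rose, 6 fell and 8 did not pass the test, where 13.8% of all 18781 genes tested rose and 15.8% fell, 29.7% in either direction (edgeR's quasi-likelihood test, adjusted p under 0.05). The control and shRNA values of 8 of the 14 did not overlap, which held for 65.9% of all genes tested. The median log2 fold change of the 14 was -0.42, against -0.0045 for all genes tested, and 13 of the 14 had a value below 0. Of the 7 members with a mean of at least 5 CPM, 6 fell, the exception being CDH2. The share of all genes at that level that fell was not computed. Below, each log2 fold change is shRNA over control, ± its standard error (n = 2 libraries in either group). The adjusted p-values come from the same edgeR quasi-likelihood fit, adjusted after Benjamini and Hochberg across every gene tested.

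N-cadherin was not among the genes that moved. CDH2 (chr18:27950966-28177130, minus strand) stood at 514 and 485 CPM in the control pair, against 495 and 490 CPM with the shRNA, so the shRNA values lay between the control values. Its log2 fold change was -0.02 ± 0.042 (adjusted p = 0.754), with a 95% interval from -0.12 to 0.07. With library totals as the only scaling, which moves the median of all genes to 0.04, its sign turned to 0.03 (adjusted p = 0.604).

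The other type I cadherins were low and did not pass the test. CDH1 held 4.70 and 3.63 CPM in the control pair, against 4.004 and 3.41 CPM with the shRNA, and the groups overlapped. Its log2 fold change of -0.17 ± 0.17 (adjusted p = 0.506) has a 95% interval from -0.55 to 0.22. CDH4 (R-cadherin) stood at 3.69 and 3.10 CPM against 3.14 and 2.79 CPM, also overlapping. CDH3 (P-cadherin) stood at 1.55 and 2.20 CPM in the control pair, against 1.55 and 0.978 CPM with the shRNA. Its log2 fold change of -0.56 ± 0.28 missed the threshold (adjusted p = 0.162), and passed it without control 1 (adjusted p = 0.0106) or without shRNA library 1 (adjusted p = 0.0371). Without control 2 the log2 fold change was -0.29 (adjusted p = 0.487), and without shRNA library 2 it was -0.27 (adjusted p = 0.596). CDH15, the muscle cadherin, had at most 2 counts in a library and was not tested.

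Of the type II cadherins tested, 3 of 4 fell, beside 15.8% of all genes tested. CDH11 (chr16:64943753-65122063, minus strand) stood at 141 and 128 CPM in the control pair, against 94.3 and 94.4 CPM with the shRNA. The groups were well apart, with a log2 fold change of -0.51 ± 0.053 (adjusted p = 1.81e-04). CDH24 (chr14:23047062-23057538) stood at 23.8 and 27.2 CPM against 17.9 and 17.0 CPM, a log2 fold change of -0.55 ± 0.083 (adjusted p = 0.00133). CDH6 (K-cadherin, known from kidney development and from ovarian carcinoma) stood at 11.6 and 14.4 CPM against 9.66 and 9.71 CPM. This was a smaller drop, -0.43 ± 0.12 (adjusted p = 0.0224), and without a low-count filter it was not called (adjusted p = 0.0991). CDH8 stood at 1.55 and 0.775 CPM in the controls, with both shRNA libraries (1.28 and 1.34 CPM) between them.

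CDH13 (chr16:82626969-83800640, plus strand) also fell. It stood at 71.6 and 73.1 CPM in the control pair, against 48.5 and 49.3 CPM with the shRNA, 1.48-fold lower. The log2 fold change was -0.57 ± 0.046 (adjusted p = 5.22e-05). Its spread within each group was small beside the gap between the groups.

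Of the unclustered protocadherins, PCDH7 and PCDH1, both of the delta-1 kind with long cytoplasmic tails, fell. PCDH7 (chr4:30720369-31146805) went from 12.9 and 12.1 CPM to 7.21 and 7.75 CPM. At -0.74 ± 0.097 (adjusted p = 6.07e-04) it had the largest fall among the members that passed the test, 1.67-fold. PCDH1 (chr5:141862652-141878410, minus strand) went from 8.05 and 7.56 CPM to 5.70 and 5.98 CPM, -0.42 ± 0.11 (adjusted p = 0.0195). The PCDH1 call was lost with DESeq2 (adjusted p = 0.102), with no filter (adjusted p = 0.0552) and without shRNA library 1 (adjusted p = 0.124). PCDH10, PCDH18 and PCDH9 had between 0.761 and 1.99 CPM in any library and log2 fold changes of -0.56, -0.11 and -0.05, none past the test.

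Markers of other kinds moved in the same direction as these 6 genes. The summed level of the 6 markers of fibroblasts or smooth muscle was 2369 and 2362 CPM in the control pair, against 1678 and 1812 CPM with the shRNA, with 4 of 5 tested markers lower and COL1A2 at or below 0.305 CPM. The 9 secretory or epithelial markers summed to 1848 and 1745 CPM against 1249 and 1253 CPM, with 4 of 7 tested lower. Both counts are to be read beside the 15.8% of all genes tested that fell. The part of these markers in the lower CDH11, CDH13, CDH24, CDH6, PCDH7 and PCDH1 levels was not tested. In RNA from whole cultures, fewer cells that express a gene and less RNA per cell cannot be told apart.

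**Figure D2:**
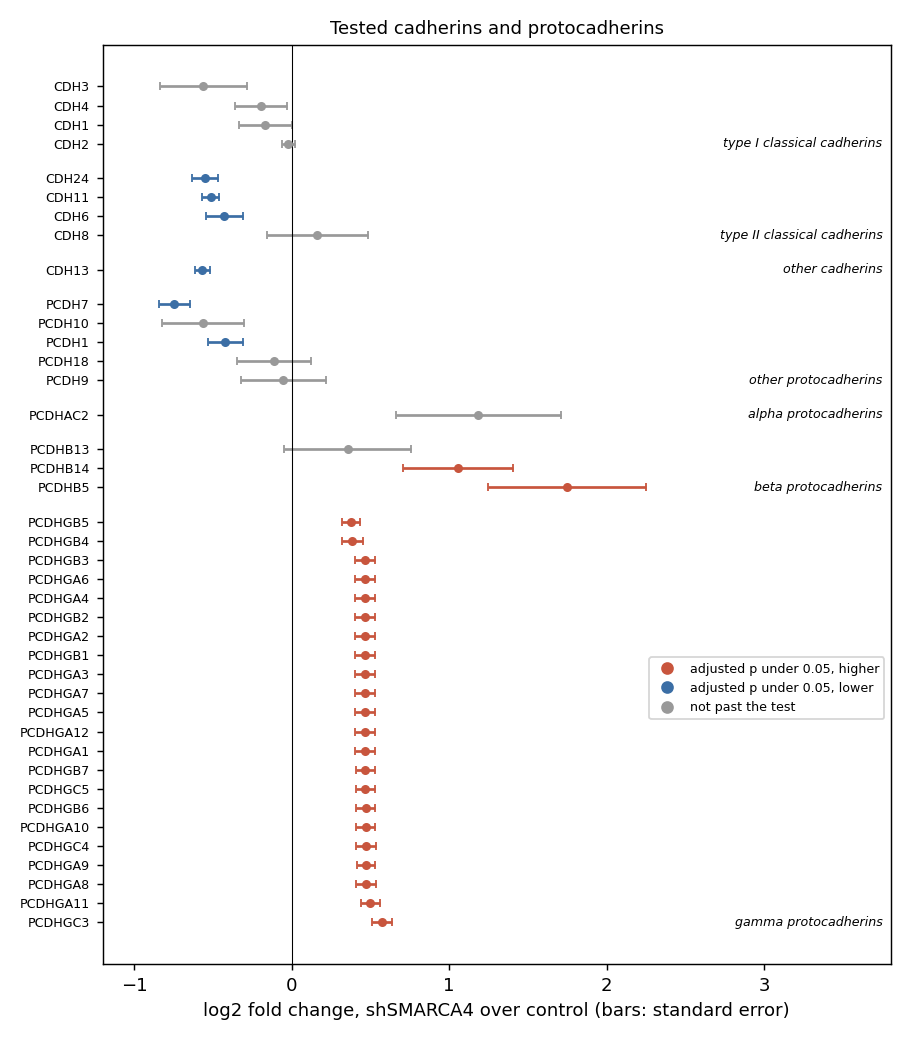
Log2 fold change of shSMARCA4 over control for the 40 members tested, grouped by class, with bars for the standard error and colours for the call at an adjusted p of 0.05 (red higher, blue lower, grey not past the test). The 6 members that fell are CDH24, CDH11, CDH6, CDH13, PCDH7 and PCDH1, and the 22 gamma members stand in a column between 0.38 and 0.57.

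In the gamma cluster every gene was called higher, but the 22 calls are largely the same reads. All 22 rose in the deposited counts, beside 13.8% of all genes tested, with log2 fold changes between 0.38 and 0.57 and a median of 0.47. The lowest count among the 22 genes was 1689 and 1882 reads in the control pair, against 2146 and 2143 reads with the shRNA, and it was that of PCDHGA3 in all 4. In each library 18 of the 22 stood less than 50 reads above it. This lowest count stands for the reads of the constant exons, and what a gene has above it is a lower bound on the reads of its own first exon. Added over the 22 rows, the deposited counts come to 39662 reads in control 1, whereas the shared reads counted once and all reads above them come to 4193. The 22 rows are thus not 22 measurements.

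With the shared reads entered once, the gamma cluster as a whole still rose. The shared reads stood at 51.6 and 58.2 CPM in the control pair, against 74.2 and 77.8 CPM with the shRNA. The shRNA libraries were both higher, with a log2 fold change of 0.47 ± 0.062 (adjusted p = 5.32e-04), 1.38-fold. Per length, the constant exons stood at 25.2 RPKM in controls and 34.9 RPKM in shRNA cells (means of 2). CDH11 stood at 20.1 and 14.1 RPKM in the same groups. Reads above the shared count, divided by the length of each first exon and summed over the 22 genes, came to 972 and 1055 reads per kb in the controls beside 776 and 865 (control 1 and 2) for the constant exons. In the shRNA libraries these values were 1207 and 1223 reads per kb beside 986 and 984.

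**Figure D3:**
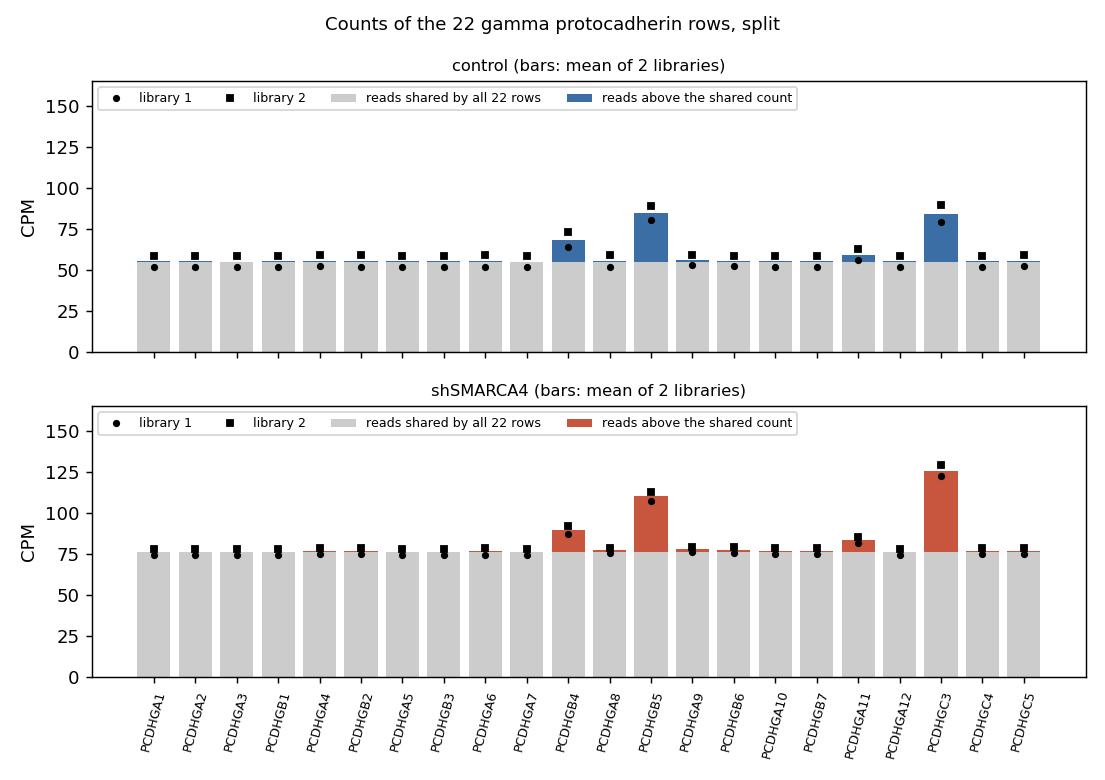
CPM of the 22 gamma protocadherin rows in genome order, split into the shared count (grey) and the reads above it (coloured), as means of 2 libraries in each group, with the total of each library as points. The grey part is the same in all 22 rows of a panel, 54.9 CPM for controls, 76.0 CPM for shRNA cells, and only PCDHGB4, PCDHGB5, PCDHGA11 and PCDHGC3 rise visibly above it.

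Of the 22 first exons 4 were used well above the rest. PCDHGC3, PCDHGB5, PCDHGB4 and PCDHGA11 held 94.4% and 95.5% of all reads above the shared count of the control pair, and 93.9% and 94.1% with the shRNA. PCDHGC3 belongs to the C-type genes at the 3′ end of the cluster, which are not used by random choice. The other C-type gamma genes, PCDHGC4 and PCDHGC5, had at most 21 reads above the shared count in any library. In control 1 PCDHGC3 had 892 such reads, PCDHGB5 946, PCDHGB4 396 and PCDHGA11 130. The other 18 had at most 45 in any library.

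Each of these 4 first exons was then tested on its own reads; differences between their changes were not tested. PCDHGC3 had 27.3 and 31.3 CPM of its own in the control pair, against 48.0 and 51.2 CPM with the shRNA. This was the largest gain in reads, 1.69-fold, with a log2 fold change of 0.76 ± 0.072 (adjusted p = 7.93e-05). PCDHGA11 went from 3.97 and 4.02 CPM to 7.40 and 7.48 CPM, 0.90 ± 0.12 (adjusted p = 4.95e-04). PCDHGB5 was at 28.9 and 30.3 CPM in the control pair, against 33.1 and 34.8 CPM with the shRNA. This was a rise of 1.15-fold, 0.20 ± 0.060 (adjusted p = 0.0332). PCDHGB4 stood at 12.1 and 14.7 CPM in the control pair, against 12.5 and 14.2 CPM with the shRNA, with both shRNA values inside the control range. Its log2 fold change of -0.01 ± 0.11 (adjusted p = 0.965) has a 95% interval from -0.26 to 0.24, while the deposited count of the same gene, shared reads included, gave 0.38 ± 0.066.

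Among the remaining 18, PCDHGC4 and PCDHGA8 also passed the test on reads above the shared count, on few reads. PCDHGC4 had 6 and 7 such reads in the control pair, against 15 and 16 with the shRNA (log2 fold change 1.44 ± 0.40, adjusted p = 0.0237). PCDHGA8 had 6 and 17 against 31 and 20 (1.34 ± 0.44, adjusted p = 0.0468). PCDHGC4 passed the low-count filter only through the shRNA libraries, where it is high, and PCDHGA8 needed at least 1 of them, so these calls are a description and support nothing. PCDHGA4, PCDHGA6, PCDHGA9, PCDHGB2, PCDHGB6 and PCDHGC5 were tested and not called, and the last 10 (PCDHGA1, PCDHGA2, PCDHGA3, PCDHGA5, PCDHGA7, PCDHGA10, PCDHGA12, PCDHGB1, PCDHGB3 and PCDHGB7) had too few reads of their own for a test.

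The shares of the cluster's own reads describe its make-up in each library. PCDHGC3 took 35.6% (95% Wilson interval 33.8 to 37.5) and 37.2% (35.4 to 39.1) in the control pair, against 44.6% (42.9 to 46.4) and 44.7% (43.0 to 46.5) with the shRNA. PCDHGB5 took 37.8% (35.9 to 39.7) and 36.1% (34.3 to 37.9) in the control pair, against 30.8% (29.2 to 32.4) and 30.4% (28.9 to 32.1) with the shRNA. PCDHGB4 took 15.8% and 17.4% against 11.6% and 12.4%. PCDHGC3 was level with PCDHGB5 in the controls and ahead of it in the shRNA libraries. These intervals cover counting error only, and an exact permutation test on a share, at n = 2 in either group, cannot give less than p = 0.33, so none was run.

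**Figure D4:**
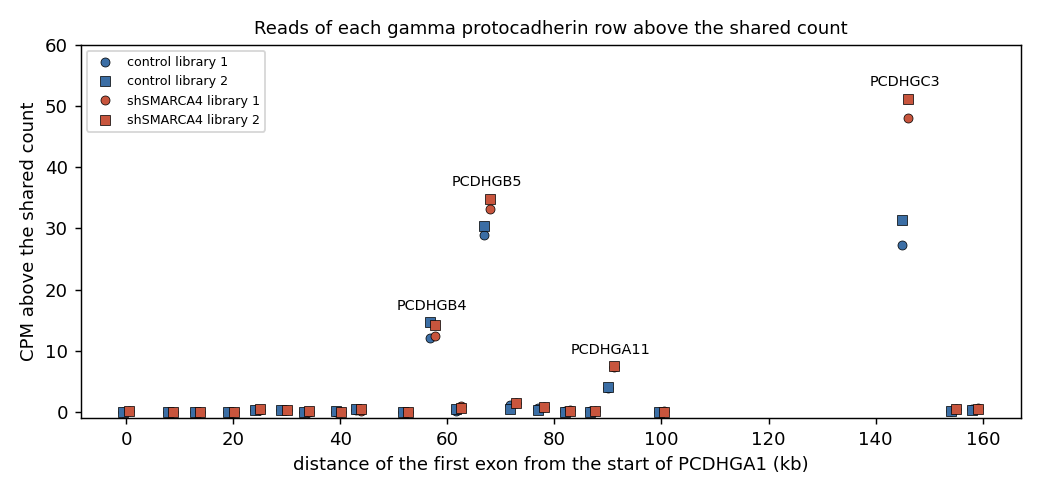
Reads above the shared count (CPM) of each gamma protocadherin, placed at the distance of its first exon from the start of PCDHGA1 (kb), with 1 point per library (circles library 1, squares library 2; blue control, red shSMARCA4; groups are offset sideways). The shRNA points of PCDHGC3 (48.0 and 51.2 CPM) and PCDHGA11 (7.40 and 7.48 CPM) lie above the controls, and those of PCDHGB4 lie within the control range.

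The beta and alpha clusters were close to silent. Beta genes have no constant exons, so each count is that of its own exon, although the 16 genes are similar in sequence. PCDHB5 had 3 and 4 counts in the control pair, against 10 and 11 with the shRNA, and its log2 fold change of 1.75 ± 0.50 passed the test (adjusted p = 0.0280). PCDHB14 had 9 and 13 against 21 and 19 counts (1.05 ± 0.35, adjusted p = 0.0498). In both genes each shRNA library was above each control, and the groups did not overlap for 65.9% of all genes tested. PCDHB5 passed the low-count filter only through the shRNA libraries, where it is high, and PCDHB14 needed at least 1 of them. These calls are therefore a description and support nothing. Both calls were lost when either shRNA library or control 1 was left out, for PCDHB5 also without control 2 (adjusted p between 0.0820 and 0.210 over these). With no filter both were lost as well (adjusted p = 0.0691 for PCDHB5 and 0.0938 for PCDHB14). PCDHB13 had 12 and 14 against 19 and 10 counts and did not pass. The other 13 beta genes had at most 9 counts in a library and were not tested, with PCDHB1, PCDHB4 and PCDHB11 at 0 in all libraries.

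The alpha genes show the same sharing as the gamma genes at a far lower level. All 15 held at least 1 count in control 1, at least 3 in control 2, at least 6 in shRNA library 1 and at least 10 in shRNA library 2, and most had exactly these numbers, which are the reads of the alpha constant exons. Only PCDHAC2 passed the filter, through its shRNA libraries, with 3 and 9 counts in the control pair, against 11 and 13 with the shRNA. Its log2 fold change of 1.18 ± 0.52 did not pass the test (adjusted p = 0.123). The shared alpha reads, 1 and 3 in the control pair against 6 and 10 with the shRNA, were too few to test. They did not overlap between the groups, which held for 65.9% of all genes tested.

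The gamma cluster and PCDH1 lie on the same chromosome and moved in opposite directions. PCDH1 lies 349677 bases beyond the end of the gamma constant exons on chromosome 5. It fell, as above, while the gamma constant exons rose.

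Promoters of the clustered genes are known for a conserved element around the letters CGCT close to the start site, and CTCF binds many of them. Windows around the gene start from RefSeq, build GRCh38.p14, were at hand for 69 of the 88 members. A 7-base word for each cluster was picked from the same windows, so its frequency there is a description only. Searched on both strands, TGGCGCT stood in 13 of 14 beta genes and CGCTGTT in 13 of 20 gamma genes, against 4.08% and 2.26% of all 35116 promoters. TGTCGCT stood in 10 of 13 alpha genes, against 1.76% of all. These 3 words overlap in the letters CGCT. No match was found for PCDHGA11 and PCDHGC4, where either the window lacked these words or no window was at hand. The windows below are those of some gamma and beta genes named above that held a word. They give the word in capitals and all lie on the plus strand of chromosome 5. They come from genes of unlike read number, and a link of word and read number was not tested. The words shown start between -68 and -14 bases from the gene start, except that of PCDHGC3, at -149. TGGCGCT, the word of the PCDHGC3 line, stood in 3 of 20 gamma genes.
PCDHGB5: actctgggcgcCGCTGTTggccaaagtgc
PCDHGB4: actctgggcgcCGCTGTTggccaaagtgg
PCDHGA8: actgtaagcgcCGCTGTTcacctactgga
PCDHGC3: agtgaagttccTGGCGCTagcgcgtgtcc
PCDHB5: aggacgcctggTGGCGCTgcaggctaaga
PCDHB14: gagacacatggTGGCGCTacaggataaga
They lie at 141397868 to 141397896, 141387622 to 141387650, 141392573 to 141392601, 141475806 to 141475834, 141135181 to 141135209 and 141223265 to 141223293, in the order of the lines. PCDHGB5 and PCDHGB4 also held TGGCGCT further downstream in the same windows. A match is a run of letters and says nothing on binding in these cells.

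The remaining members gave too few reads to test. 48 of the 88 failed the filter, 21 of them outside the clusters, and the highest count any of the 48 reached in a library was 11. CDH18 (9 and 10 counts in the controls, 6 and 4 in the shRNA libraries), CDH16 (5 and 9, then 1 and 4) and CDH23 (3 and 11, then 3 and 3) were the highest outside the clusters. CDH5, the endothelial cadherin, had 1 count in control 1 and 0 elsewhere. CDH7, CDH9, CDH12, CDH19, CDH22, PCDH8, PCDHB1, PCDHB4 and PCDHB11 were at 0 in all 4 libraries, where a count of 0 allows up to 0.0915 to 0.109 CPM depending on the library. CDH10, CDH15, CDH17, CDH20, CDH26, PCDH11X, PCDH12, PCDH15, PCDH17, PCDH19 and PCDH20 had at most 5 counts in a library. Only 1 transcript per gene was counted, so a low value concerns that transcript.

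The partners of the cadherins are given by list, and each count is to be read beside the 13.8% of all genes tested that rose and the 15.8% that fell. Of 12 catenins and junction linkers 10 were tested, 0 rose and 2 fell, a share near that of all genes, and their median log2 fold change was -0.07. The actin linker AFDN fell from 273 and 286 CPM to 217 and 224 CPM (-0.34 ± 0.042, adjusted p = 4.69e-04). CTNNB1 (beta-catenin, which binds the cadherin tail) fell from 467 and 476 CPM to 406 and 416 CPM (-0.20 ± 0.038, adjusted p = 0.00467). Alpha-catenin CTNNA1 (-0.08 ± 0.038) and p120-catenin CTNND1 (-0.06 ± 0.040) did not pass.

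Of 25 relatives in the wider cadherin superfamily 16 were tested, 2 rose and 6 fell, beside 13.8% and 15.8% of all genes, and their median log2 fold change was -0.10. Among those that fell were the desmosomal DSC3 (-0.47 ± 0.054), the calsyntenin CLSTN2 (-0.68 ± 0.088) and the planar polarity cadherin CELSR2 (-0.26 ± 0.050). The giant cadherin FAT4 (0.43 ± 0.064) and CELSR3 (1.03 ± 0.16) rose, whereas FAT3 of the same family as FAT4 fell (-0.86 ± 0.18). FAT1 and FAT2 did not pass the test. DSG2, the most abundant of this list, stood at 462 and 454 CPM against 440 and 437 CPM and did not pass.

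Of 8 proteases that process or shed cadherins, all tested, 2 rose and 2 fell, beside 13.8% and 15.8% of all genes, and their median log2 fold change was 0.07. FURIN, which removes the propeptide of classical cadherins, fell from 83.9 and 82.7 CPM to 38.1 and 41.7 CPM (-1.06 ± 0.054, adjusted p = 5.95e-06). ADAM15 fell (-0.53 ± 0.042). ADAM10, the main sheddase of E- and N-cadherin, rose from 241 and 240 CPM to 285 and 287 CPM (0.25 ± 0.038), and ADAM17 rose by 0.27 ± 0.048.

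Of 18 genes for CTCF, cohesin and other regulators of the protocadherin clusters, all tested, 1 rose and 2 fell, beside 13.8% and 15.8% of all genes, and their median log2 fold change was 0.02. The cohesin cofactor PDS5A rose (0.19 ± 0.042), and the cohesin subunits SMC1A (-0.12 ± 0.037) and SMC3 (-0.12 ± 0.039) fell. CTCF stood at 102 and 102 CPM against 110 and 109 CPM (0.10 ± 0.041, adjusted p = 0.0837), and the silencer SMCHD1 at -0.08 ± 0.040, neither past the test. Of 7 repressors of E-cadherin, all tested, 2 rose and 1 fell, beside 13.8% and 15.8% of all genes, with a median log2 fold change of 0.11. ZEB2 fell from 34.9 and 32.1 CPM to 22.6 and 23.1 CPM (-0.55 ± 0.066, adjusted p = 3.89e-04), and TCF3 (0.19 ± 0.046) and ZEB1 (0.18 ± 0.053) rose. SNAI1, SNAI2, TWIST1 and TWIST2 did not pass the test.

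Since clustered protocadherins are best known from neurons, 6 neural markers were read beside them. They summed to between 45.2 and 49.9 CPM in each library, and of 5 tested the synaptic vesicle protein SYP (1.43 and 1.61 CPM against 3.07 and 3.41 CPM) and MAP2 rose and TUBB3 fell. RBFOX3 stayed at or below 0.310 CPM. Their part in the gamma protocadherin result was not tested.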

How the data were processed

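Per the file headers, the authors counted reads over GENCODE release 45 exons (hg38) with analyzeRepeats of HOMER, and the deposited values are unnormalized counts. Reads on both strands were counted, 1 transcript was kept per gene and no normalization was applied, per the file headers, so overlapping, antisense and constant exons share reads. Per the submitters' processing notes, STAR 2.6.1c and DESeq2 1.19.38 were also used. The header command names 6 libraries, and the 4 columns held here were used.

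The members, gene lists and tests were chosen with earlier results of these data known. Genes were kept by filterByExpr (count minimum 10), scaled by trimmed means of M values and tested with edgeR 4.0.16 (R 4.3.3; two-sided glmQLFTest). Adjustment (Benjamini-Hochberg) ran over the 18781 genes kept, with a threshold of 0.05. CPM and RPKM were computed from the deposited counts. The standard error was taken as |log2 fold change| divided by the root of F. The test was checked on counts simulated with the same dispersion for every gene and both groups, which these libraries need not share. There 78% of 50 genes set to a 1.5-fold change were recovered, and 3.24% of calls were false. Smaller changes were not simulated. Every member that passed the filter is named, with values per library if called or at a mean of at least 5 CPM (gamma genes whose counts are nearly all shared reads by range only), and up to 3 genes per partner list in each direction. Other values were added after they were seen, as was the split of shared cluster reads. Exons and sequences of release 29, of the same build as the counts, were used. Of the unclustered and beta members tested, CDH3 shared 14.9% of its exon bases with other genes, PCDHB5 14.7%, and the rest at most 4.34%.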

Additional observations from a re-analysis of the deposited data

How the results depend on the processing

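Counting the shared cluster reads once, a choice made after seeing the data, lowered the members called higher from 24 to 7 (PCDHGC3, PCDHGB5, PCDHGA11, PCDHGC4, PCDHGA8, PCDHB5 and PCDHB14) beside the shared gamma reads, and turned the sign of PCDHGB4 to -0.0089. Of these members PCDHGC4, PCDHGA8, PCDHB5 and PCDHB14 needed at least 1 shRNA library to pass the low-count filter. Gamma reads above the shared count were fitted in this 1 setting only, so how they depend on the processing was not tested. In the other settings the 22 gamma calls are largely the same reads and not 22 results. The 22 gamma calls were kept in all other settings, and the 6 lower calls in all but 3 settings: no filter kept 4, DESeq2 and the fit without shRNA library 1 kept 5. The counts of all genes, 2596 higher and 2976 lower, were 1403 and 1784 with no filter and 1625 and 1930 with DESeq2; the cause was not tested. Leaving out each library gave 1724 to 3618 higher and 2077 to 3828 lower over all genes, and 22 to 24 higher and 6 to 7 lower members; 1724 higher is the value without shRNA library 1. Genes called higher made up 46.6% of calls, and 59.5% with library totals. Whether same-numbered libraries were prepared together is not in the labels (correlation of same-numbered deviations 0.15), and a shared batch was not tested. With the replicate block 3187 genes were higher and 3562 lower, and the members called were 24 and 6. Of members not past the test, some turned sign when a library was left out, with log2 fold changes from -0.2494 to 0.757 for CDH8, -0.2753 to 0.2191 for PCDH9, -0.3399 to 0.038 for CDH1, -0.1322 to 0.7087 for PCDHB13, -0.4172 to 0.1555 for PCDH18 and -0.0629 to 0.0269 for CDH2. CDH2 was 0.029 with library totals. PCDHAC2 passed the test without control 2 (2.16). DESeq2 gave no adjusted p for PCDHB5, PCDHB14, PCDHB13 and PCDHAC2. Whether depth limits the calls of members with few reads was not tested.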
